A study of Ambystoma mexicanum with 18 samples.

Results

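A set of 10 genes for secreted, non-collagen matrix proteins of the blastema mesenchyme (FN1, TNC, POSTN, SPARC, THBS1, FSTL1, DCN, LUM, ENPP2 and PI15) was followed across 6 groups of sorted axolotl (Ambystoma mexicanum) blastema cells. A gene was taken as the row of the count table that carries its symbol, without regard to case. Of the 10 genes, 8 had exactly 1 such row, and all 8 were among the 25377 of 99126 rows that passed the filter on low counts (0.5 CPM or more in 1 or more libraries, where CPM are counts scaled to library size). LUM and THBS1 had no row under these symbols and were not analysed here.

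The cells carried the Hoxa13:mCherry reporter, in which mCherry is made together with HOXA13 and marks the distal part of the blastema, the progenitor mass that regrows an amputated salamander limb. Blastemas of these animals, whose age is not given in the sources used here, were electroporated with Tig1-T2a-GFP or with Tig1P155A-T2a-GFP, in which a proline of the latexin domain of this cell surface protein is changed to alanine. At 3 and at 8 days post electroporation (dpe) the epidermis was taken off, and cells were sorted as overexpressing (Tig1 or Tig1P155A, mCherry+/GFP+) or control (mCherry+/GFP−). The control cells thus shared reporter and amputation with the overexpressing cells. Each time point has a single control group for both forms. Whether its cells came from blastemas given Tig1, Tig1P155A or both is not stated in the sources used here. The libraries include no cells given GFP without Tig1. Each group has 3 Smart-seq2 libraries of 300 cells, made from blastemas pooled per condition. The methods of the study call its replicates biological. Whether each library had a pool of its own is not given in the sources used here, and the p-values measure the spread between these libraries.

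The extracellular matrix of a blastema is a loose, provisional one that is laid down largely by connective tissue cells. Fibronectin and tenascin-C are abundant in regenerating salamander limbs, and matricellular proteins such as periostin and SPARC tune how cells attach to the fibrillar scaffold rather than carrying load. Small proteoglycans such as decorin coat collagen fibrils, and secreted enzymes act on lipids and proteins within the same space. These genes are mostly products of mesenchyme and are little used by blood cells, apart from a few such as FN1 in macrophages. In these bulk libraries fewer cells of a type and less RNA per cell cannot be told apart.

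Total counts lay between 9732514 and 23086124 per library, and TMM factors, which rescale library sizes, between 0.511 and 1.49. In 3 libraries the factor was under 0.7 (Tig1 replicate 2 and Tig1P155A replicate 1 at 3 dpe, and Tig1P155A replicate 1 at 8 dpe). Mitochondrial genes held 65.4%, 57.1% and 63.2% of the counts in these 3, the highest shares of all libraries. The share ran from 18.4% to 65.4% in overexpressing and from 23.6% to 45.3% in control libraries. The gene that the study's files pair with Tig1, LOC115479139, lay between 151 and 514 CPM in the 12 overexpressing libraries and between 2.85 and 8.81 CPM in the 6 control libraries. Cell type markers differed between the same groups. The 16 connective tissue markers, none of which is among the matrix genes, summed to 804 to 1588 CPM in overexpressing cells and 3364 to 10172 CPM in control cells at 3 dpe. At 8 dpe they summed to 2569 to 9135 CPM in overexpressing cells and 9640 to 15227 CPM in control cells. The 14 myeloid markers with a row summed to 4734 to 11444 CPM over all overexpressing libraries and to 2.18 to 95.2 CPM over all control libraries, and 14 of 14 were higher, with a median average log2 fold change of 7.15. Neutrophil granule markers summed to 441 to 1118 CPM in overexpressing and 3.47 to 15.9 CPM in control libraries, and 5 of 5 tested were higher. Of the genes that define white blood cells and macrophages at 3 dpe, PTPRC was at 317 to 391 CPM in overexpressing and 0 to 8.57 CPM in control libraries, and SPI1 at 25.3 to 79.4 CPM in overexpressing and 0 to 0.366 CPM in control libraries. CSF1R was at 392 to 642 CPM in overexpressing and 0.291 to 4.18 CPM in control libraries. C1QB was at 1673 to 2755 CPM in overexpressing and 0.174 to 31.7 CPM in control libraries. The thrombocyte markers (3 higher and 1 lower of 7 tested) summed to 721 to 1322 CPM in overexpressing and 295 to 581 CPM in control libraries at 3 dpe. At 8 dpe the sums were 579 to 1261 CPM in overexpressing and 252 to 362 CPM in control libraries. The epidermis markers (1 lower of 7 tested) summed to 42.8 to 235 CPM in overexpressing and 518 to 662 CPM in control libraries at 3 dpe. At 8 dpe they summed to 154 to 2270.1 CPM in overexpressing and 729 to 942 CPM in control libraries. Muscle markers (2 lower and 1 higher of 7 tested) reached 1997 CPM in a Tig1 library of 8 dpe, against at most 35.9 CPM in the control libraries of that time. Markers counted here as higher or lower were called on the average of the 4 comparisons with control, by the test given below. Of all genes tested 18.7% were called lower and 21.4% higher in this way. The part of these cell types in the results was not tested.

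Each gene was compared with edgeR's quasi-likelihood test in 1 fit of all 18 libraries, with Benjamini-Hochberg adjustment over all 25377 genes, and a gene was called at an adjusted p under 0.05. All adjusted p-values below come from this test. The test gives no standard error. Each SE below was worked back from the log2 fold change and the test statistic, and the intervals of log2 fold changes rest on it. For genes with few or no counts in a group, SE and interval are therefore no reliable measure of precision. Levels are TMM-scaled CPM, which do not allow for gene length, so levels are compared within a gene and not between genes. Positions are those of the gene span, introns included, in the genome build AmexG_v6.0-DD.

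All 8 matrix genes were lower in overexpressing than in control cells when the 4 comparisons (each form at 3 and at 8 dpe) were averaged. The average log2 fold change lay between −1.84 for FN1 and −4.81 for PI15, with a median of −2.32, against a median of 0.05 over all genes tested. The call was shared with 18.7% of all genes tested, which were also called lower on average, and with 25.4% of the 11557 genes with a mean of 4 CPM or more. The matrix genes were chosen with earlier results of these data known. The shares of all genes given here and below are therefore no independent test of the set. In 6 of the 8 genes (TNC, POSTN, SPARC, FSTL1, ENPP2 and PI15) each of the 12 overexpressing libraries lay below every control library of its time point, as did 6.05% of all genes and 10.3% of those with at least 4 CPM. FN1 and DCN did so in 10 of 12 libraries each. The connective tissue markers fell by a like amount in the same libraries (15 of 16 called lower, median −2.04), and their part in the result was not tested.

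**Figure D1:**
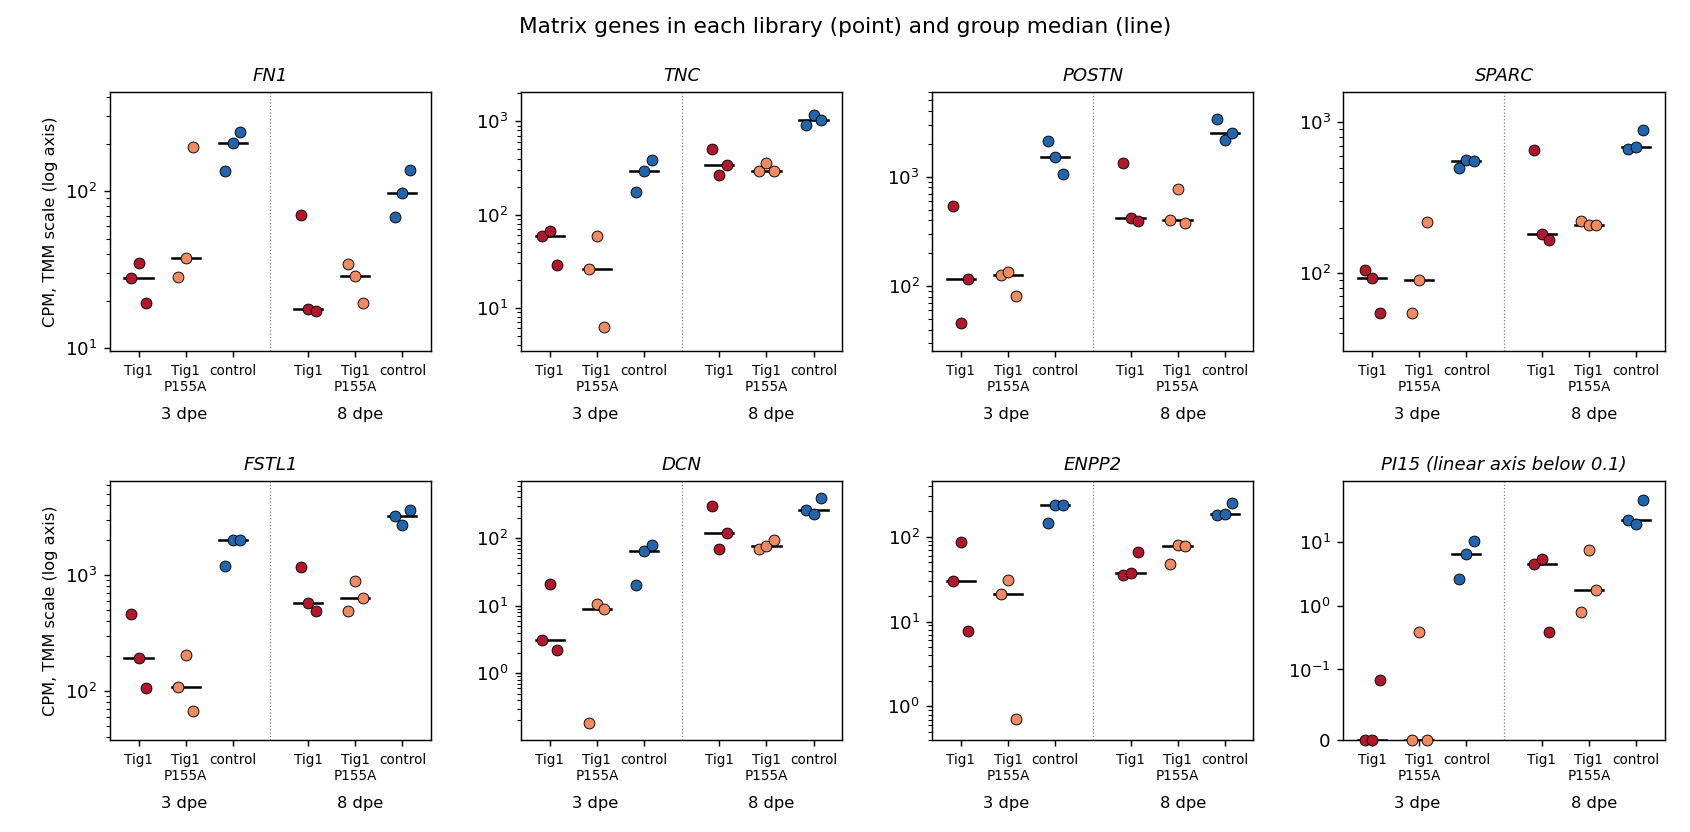
Level of each matrix gene in every library, in TMM-scaled CPM on a log axis (linear below 0.1 for PI15), at 3 dpe (left of the dotted line) and 8 dpe (right); points are libraries, lines the median of 3 libraries, red Tig1, orange Tig1P155A and blue control. Control cells lie above both kinds of overexpressing cells in each panel, except for FN1 in Tig1P155A replicate 3 at 3 dpe (190.4 CPM) and for single Tig1 libraries of FN1 (71.1 CPM) and DCN (295 CPM) at 8 dpe and of DCN at 3 dpe (20.8 CPM).

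Fibronectin, FN1 (AMEX60DD055420, chr9q:344493976-344596044, plus strand), is the large adhesive glycoprotein that integrins bind and assemble into fibrils. At 3 dpe it had 27.9, 34.9 and 19.5 CPM in Tig1 cells, 28.4, 37.8 and 190.4 CPM in Tig1P155A cells and 134, 204 and 239 CPM in control cells. The third Tig1P155A library stood apart from the other libraries of its group and reached into the control range. By 8 dpe FN1 had 71.1, 17.9 and 17.3 CPM in Tig1 cells, 34.6, 28.7 and 19.4 CPM in Tig1P155A cells and 68.9, 97.7 and 136 CPM in control cells, where the first Tig1 library lay within the control range and the other overexpressing libraries below it. Averaged over the 4 comparisons, the log2 fold change of FN1 was −1.84 (SE 0.36, adjusted p = 4.61e-04). At 3 dpe it was called lower with Tig1, at −2.81 (SE 0.65, adjusted p = 0.00377), and not with Tig1P155A, at −1.17 (SE 0.62, adjusted p = 0.172). Without the third Tig1P155A library the Tig1P155A difference was −2.54 (adjusted p = 0.00374). At 8 dpe neither difference passed the threshold, at −1.51 (SE 0.62, adjusted p = 0.138) with Tig1 and −1.87 (SE 0.63, adjusted p = 0.0608) with Tig1P155A. Without the first Tig1 library of 8 dpe the Tig1 difference was −2.52 and was called (adjusted p = 0.0138).

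Among the matricellular genes, TNC (AMEX60DD050822, chr8p:255984783-256143292, minus strand) encodes tenascin-C, a multi-armed glycoprotein that loosens the hold of cells on fibronectin. It had 58.3, 66.1 and 29.0 CPM in Tig1 cells, 26.1, 59.6 and 6.17 CPM in Tig1P155A cells and 173, 294 and 383 CPM in control cells at 3 dpe. At 8 dpe the values were 503, 264 and 339 CPM in Tig1 cells, 294, 355 and 293 CPM in Tig1P155A cells and 917, 1164 and 1038 CPM in control cells. Overexpressing and control libraries did not overlap at either time, and the highest overexpressing library of 8 dpe stayed below the lowest control. The average difference was −2.23 (SE 0.31, adjusted p = 1.14e-05). TNC was called lower with both forms at 3 dpe, at −2.47 with Tig1 (adjusted p = 0.00275) and −3.21 with Tig1P155A (adjusted p = 3.02e-04, and −4.26 without Tig1P155A replicate 2), and at 8 dpe with Tig1P155A at −1.73 (adjusted p = 0.0397), where the Tig1 difference of −1.50 missed the threshold (adjusted p = 0.0795).

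POSTN (AMEX60DD049175, chr7q:573261852-573369190, minus strand) encodes periostin, which links collagen, fibronectin and tenascin and is made by fibroblasts of healing tissue. It had 544, 45.8 and 117 CPM in Tig1 cells, 126, 136 and 81.8 CPM in Tig1P155A cells and 2134, 1520.3 and 1069.7 CPM in control cells at 3 dpe, where Tig1 replicate 1 was the highest overexpressing library. The 8 dpe libraries had 1347, 422 and 391 CPM in Tig1 cells, 404, 771 and 377 CPM in Tig1P155A cells and 3340.1, 2187 and 2509 CPM in control cells, and Tig1 replicate 1 was again far above the other Tig1 libraries, although below every control. Over the 4 comparisons POSTN averaged a log2 fold change of −2.70 (SE 0.38, adjusted p = 1.29e-05). The difference at 3 dpe was −2.74 (SE 0.68, adjusted p = 0.00603) with Tig1, −4.49 without Tig1 replicate 1, and −3.78 (SE 0.71, adjusted p = 5.27e-04) with Tig1P155A. At 8 dpe Tig1P155A gave −2.37 (SE 0.67, adjusted p = 0.0226) and Tig1 gave −1.89 (SE 0.66, adjusted p = 0.0716), so only the difference with Tig1P155A was called. Without Tig1 replicate 1 of 8 dpe the Tig1 difference was −2.72 and was called (adjusted p = 0.0167).

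SPARC (AMEX60DD030096, chr3q:652852292-652884673, minus strand), also called osteonectin, is a calcium-binding glycoprotein that binds collagen and helps its assembly. It had 104, 92.5 and 54.5 CPM in Tig1 cells, 54.5, 89.5 and 217 CPM in Tig1P155A cells and 494, 563 and 552 CPM in control cells at 3 dpe. Its levels at 8 dpe were 654, 180.2 and 165 CPM in Tig1 cells, 220.3, 207 and 207 CPM in Tig1P155A cells and 665, 684 and 889 CPM in control cells. The control libraries of 3 dpe lay close together and well above the highest overexpressing library, while at 8 dpe Tig1 replicate 1 came close to the lowest control. The average difference was −1.95 (SE 0.28, adjusted p = 2.04e-05), and SPARC was called lower with both forms at 3 dpe (−2.68 with Tig1, and −2.15 with Tig1P155A or −2.90 without Tig1P155A replicate 3) and with Tig1P155A at 8 dpe (−1.82, adjusted p = 0.0182). With Tig1 at 8 dpe the difference was −1.16 (adjusted p = 0.144), and without Tig1 replicate 1 of 8 dpe it was −2.11 and was called (adjusted p = 0.00317).

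FSTL1 (AMEX60DD046943, chr7p:70865121-71016956, plus strand) encodes a secreted glycoprotein with the follistatin-like and calcium-binding domains that it shares with SPARC, and is typical of fibroblasts. It had 465, 193 and 106 CPM in Tig1 cells, 108, 204 and 67.0 CPM in Tig1P155A cells and 1197, 2004 and 2026 CPM in control cells at 3 dpe. At 8 dpe it had 1176, 574 and 494 CPM in Tig1 cells, 485, 890.3 and 641 CPM in Tig1P155A cells and 3225, 2692 and 3625 CPM in control cells. No overexpressing library of either time reached a control library of that time. FSTL1 had the lowest adjusted p of the 8 genes on average, −2.72 (SE 0.28, adjusted p = 3.65e-07), and was the only one called in each of the 4 comparisons, with −2.77 for Tig1 and −3.79 for Tig1P155A at 3 dpe, and −2.09 (SE 0.50, adjusted p = 0.00738) for Tig1 and −2.24 (SE 0.50, adjusted p = 0.00425) for Tig1P155A at 8 dpe. The differences of 3 dpe were −3.77 for Tig1 without Tig1 replicate 1 and −4.43 for Tig1P155A without Tig1P155A replicate 2.

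Decorin, DCN (AMEX60DD007589, chr12q:410268631-410447033, minus strand), is the small leucine-rich proteoglycan that binds collagen fibrils and sequesters TGF-beta. It had 3.16, 20.8 and 2.20 CPM in Tig1 cells, 0.182, 10.5 and 8.98 CPM in Tig1P155A cells and 20.4, 64.8 and 79.8 CPM in control cells at 3 dpe. DCN had 295, 68.7 and 118 CPM in Tig1 cells, 68.3, 76.5 and 94.2 CPM in Tig1P155A cells and 262, 228 and 391 CPM in control cells at 8 dpe. Tig1 replicate 2 at 3 dpe just exceeded the lowest control, and at 8 dpe Tig1 replicate 1 lay inside the control range. DCN averaged a log2 fold change of −2.12 (SE 0.50, adjusted p = 0.00245). DCN was called lower at 3 dpe, at −2.70 (SE 0.92, adjusted p = 0.0396) with Tig1 and −3.05 (SE 0.92, adjusted p = 0.0197) with Tig1P155A, and in neither comparison of 8 dpe, where Tig1 gave −0.87 (95% interval −2.66 to 0.92) and Tig1P155A −1.88 (−3.72 to −0.04). The Tig1 difference of 3 dpe was −4.35 without Tig1 replicate 2, and that of 8 dpe −1.65 (adjusted p = 0.297) without Tig1 replicate 1.

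ENPP2 (AMEX60DD040394, chr5q:987304117-989066135, minus strand) encodes autotaxin, the secreted enzyme that makes the signalling lipid lysophosphatidic acid. It had 30.1, 87.8 and 7.77 CPM in Tig1 cells, 21.0, 30.6 and 0.714 CPM in Tig1P155A cells and 147, 235 and 239 CPM in control cells at 3 dpe. Its 8 dpe levels were 35.1, 37.1 and 65.5 CPM in Tig1 cells, 47.2, 80.7 and 78.5 CPM in Tig1P155A cells and 182, 185 and 253 CPM in control cells. All overexpressing libraries lay below the controls of their time, with 0.714 CPM in Tig1P155A replicate 3 at 3 dpe as the lowest value. The average difference was −2.41 (SE 0.46, adjusted p = 4.21e-04). In single comparisons it was called only with Tig1P155A at 3 dpe, −3.57 (SE 0.87, adjusted p = 0.00483), and −4.40 without Tig1P155A replicate 2. With Tig1 at 3 dpe the difference was −2.31 with an adjusted p of 0.050011, just over the threshold. It passed in 8 of the 18 fits that each left out a library (Tig1 replicate 2 or Tig1P155A replicate 2 or 3 of 3 dpe, and Tig1 replicate 2, Tig1P155A replicate 2 or 3 or control replicate 1 or 3 of 8 dpe), and was −3.44 (adjusted p = 0.016) without Tig1 replicate 2 of 3 dpe.

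PI15 (AMEX60DD039930, chr5q:692346318-692454302, plus strand) encodes a secreted protein of the CAP family that was described as a weak trypsin inhibitor in humans. At 3 dpe it was at 0, 0 and 0.0845 CPM in Tig1 cells, 0, 0.384 and 0 CPM in Tig1P155A cells and 2.59, 6.51 and 10.3 CPM in control cells. In counts, the 3 Tig1 libraries held 1 read and the 3 Tig1P155A libraries 8, all in replicate 2, against 535 in the 3 control libraries. The level was thus 274-fold lower with Tig1 (95% counting interval 49.0 to 10853) and 42.4-fold lower with Tig1P155A (21.4 to 98.8). A count of 0 allows up to 3 counts, which make 0.130 to 0.455 CPM in the libraries with 0 reads of PI15. As the reads carry no molecular identifiers these limits cover counting error only. At 8 dpe it was at 4.45, 5.27 and 0.384 CPM in Tig1 cells, 0.803, 7.42 and 1.73 CPM in Tig1P155A cells and 21.6, 18.7 and 44.7 CPM in control cells. Every overexpressing library of 8 dpe lay below the controls, whose lowest value was 18.7 CPM, and above 0. The average difference was −4.81 (SE 0.65, adjusted p = 8.49e-06). It was called at 3 dpe with both forms (Tig1, adjusted p = 0.00104; Tig1P155A, adjusted p = 0.00232) and not at 8 dpe, where the differences were −3.05 (SE 1.01, adjusted p = 0.0578) with Tig1 and −3.08 (SE 1.01, adjusted p = 0.0537) with Tig1P155A. The fitted values of 3 dpe rest on these few counts: −7.68 with Tig1 was −6.97 without Tig1 replicate 1 and −10.0 without Tig1 replicate 3, and −5.43 with Tig1P155A was −10.0 without Tig1P155A replicate 2 and −4.84 without Tig1P155A replicate 3. At 8 dpe the Tig1P155A difference was −4.42 and was called (adjusted p = 0.0249) without Tig1P155A replicate 2.

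Counted by comparison, 7 of the 8 genes were called lower with Tig1 at 3 dpe (all but ENPP2), beside 8.47% of all genes tested, and 7 with Tig1P155A at 3 dpe (all but FN1), beside 11.5%. At 8 dpe 1 gene was called lower with Tig1 (FSTL1), beside 1.29% of all genes, and 4 with Tig1P155A (TNC, POSTN, SPARC and FSTL1), beside 1.72%. Among the genes with a mean of 4 CPM or more these shares were 15.4%, 18.5%, 2.53% and 3.29%. None was called higher in any of the 4, beside 15.5% of all genes at 3 dpe with Tig1, 15.2% with Tig1P155A and 10.6% at 8 dpe with each form. The median log2 fold change of the 8 genes at 3 dpe was −2.72 with Tig1 and −3.39 with Tig1P155A. At 8 dpe it was −1.70 with Tig1 and −1.88 with Tig1P155A, and in each comparison the median over all genes was at most 0.12 from 0. By non-overlap of libraries the counts at 8 dpe were higher: 6 genes with Tig1 (all but FN1 and DCN), beside 14.9% of all genes, and 8 with Tig1P155A, beside 17%. At 3 dpe they were 7 with Tig1 (all but DCN), beside 18.7%, and 7 with Tig1P155A (all but FN1), beside 22%.

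Several of these single calls were lost when 1 library was left out. DCN with Tig1 at 3 dpe was not called when Tig1 replicate 1, Tig1 replicate 3, control replicate 2 or control replicate 3 of that time was left out (highest adjusted p = 0.136). FSTL1 with Tig1 at 8 dpe was not called without Tig1 replicate 2 or 3 of 8 dpe (highest adjusted p = 0.0584), while the call with Tig1P155A at that time held in all 18 such fits. With Tig1P155A at 8 dpe TNC lost its call without any 1 of the 6 libraries compared (highest adjusted p = 0.126), SPARC without any of the 3 Tig1P155A libraries or control replicate 3 (highest 0.0723), and POSTN without Tig1P155A replicate 1 or 3 or control replicate 1 (highest 0.123). Other calls of 8 dpe were gained. Besides those without Tig1 replicate 1 of 8 dpe (FN1, POSTN and SPARC with Tig1), the Tig1 difference was called without Tig1P155A replicate 3 of 3 dpe in FN1, TNC, ENPP2 and PI15 and without Tig1P155A replicate 2 of 3 dpe in TNC and PI15. It was also called without Tig1P155A replicate 1 of 8 dpe in PI15, and without Tig1 replicate 1 or 2 of 3 dpe in POSTN. With Tig1P155A, FN1 was called in 3 such fits (Tig1P155A replicate 1 or 3 of 3 dpe or Tig1 replicate 1 of 8 dpe) and PI15 in 5 (any Tig1P155A library of 3 dpe, Tig1P155A replicate 2 or Tig1 replicate 3 of 8 dpe). The average was called for all 8 genes in each of the 18 fits that left out a library. Under DESeq2's test 6 of the 8 genes were called lower with Tig1 at 8 dpe in place of 1.

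**Figure D2:**
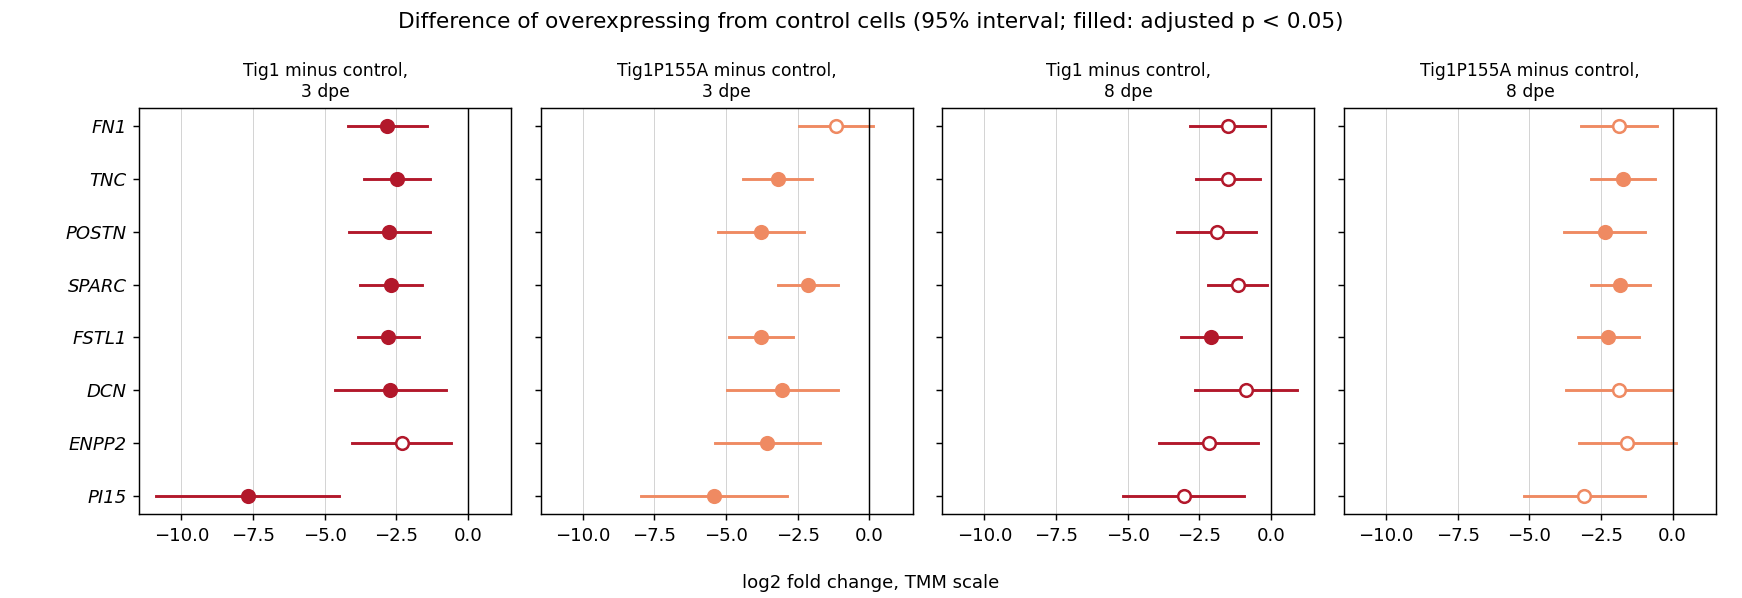
Log2 fold change of overexpressing minus control cells (TMM scale) for the 8 matrix genes in the 4 comparisons, with 95% intervals; filled points have an adjusted p under 0.05. All 32 points lie below 0, and 7, 7, 1 and 4 are filled from left to right.

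To set the matrix genes against other mesenchymal transcripts of the same libraries, libraries were scaled by the geometric mean of 14 connective tissue markers with at least 4 CPM (PRRX1, TWIST1, TWIST2, PDGFRA, MSX2, FBN2 and 8 collagen genes) in place of TMM. On this scale the median of all genes moved to 2.07 on average and 59.7% of genes were called higher. A value here gives the change relative to the connective tissue markers, and the error of the scaling itself is not in the test. Of the 8 genes 1, PI15, was still called lower on average, at −2.60 (SE 0.72, adjusted p = 0.00297), beside 0.623% of all genes. The others lay between −0.79 and 0.35: POSTN at −0.79 (SE 0.39, adjusted p = 0.0851), FSTL1 at −0.62 (SE 0.30, adjusted p = 0.0739), ENPP2 at −0.24, TNC at −0.09, DCN at 0.10, SPARC at 0.14 and FN1 at 0.35 (SE 0.37, adjusted p = 0.454). Without Tig1 replicate 1 of 3 dpe FSTL1 (−0.73, adjusted p = 0.0363) and POSTN (−1.04, adjusted p = 0.0184) were called lower on average too. POSTN was also called without control replicate 3 of 3 dpe (−0.99, adjusted p = 0.0325). At 8 dpe none was called on this scale, beside 0.0512% of all genes lower and 34.3% higher with Tig1 and 0.0552% lower and 35.6% higher with Tig1P155A. The log2 ratio of this scaling to TMM, centred over libraries, was 1.01 in Tig1 replicate 1 of 8 dpe. It was −0.21 in Tig1 replicate 2 and 0.17 in Tig1 replicate 3 of that time. Replicate 1 thus held more of the markers as a group, and their part in the calls gained without it was not tested.

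On the connective tissue scale the libraries of the 3 kinds of cells overlapped for most genes. TNC was at 127, 186 and 114 CPM in Tig1 cells, 111, 165 and 27.5 CPM in Tig1P155A cells and 155.4, 128 and 126 CPM in control cells at 3 dpe. At 8 dpe it was at 250.4, 306 and 301 CPM in Tig1 cells, 248, 312 and 264 CPM in Tig1P155A cells and 296, 344 and 195 CPM in control cells. The 3 kinds of cells overlapped at each time, and Tig1P155A replicate 3 of 3 dpe lay below all others. FSTL1 was at 1013, 541 and 420.2 CPM in Tig1 cells, 457, 564 and 298 CPM in Tig1P155A cells and 1076, 874 and 667 CPM in control cells at 3 dpe. Its levels of 8 dpe were 585, 665 and 439 CPM in Tig1 cells, 409, 783 and 579 CPM in Tig1P155A cells and 1042, 796 and 681 CPM in control cells, and the control median was the highest of the 3 at both times. For FSTL1 every Tig1P155A library of 3 dpe and every Tig1 library of 8 dpe lay below the controls of its time. Tig1 cells of 3 dpe and Tig1P155A cells of 8 dpe overlapped with control. The share of all genes without overlap was not counted on this scale.

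PI15 kept its order on this scale at 3 dpe, with 0, 0 and 0.333 CPM in Tig1 cells, 0, 1.06 and 0 CPM in Tig1P155A cells and 2.33, 2.84 and 3.40 CPM in control cells. At 8 dpe it had 2.22, 6.10 and 0.341 CPM in Tig1 cells, 0.677, 6.52 and 1.56 CPM in Tig1P155A cells and 6.98, 5.54 and 8.40 CPM in control cells, and the highest Tig1 and Tig1P155A libraries lay within the control range. It was called lower with Tig1 at 3 dpe, at −5.16 (SE 1.65, adjusted p = 0.0112), beside 0.169% of all genes lower and 52.4% higher, and not with Tig1P155A, at −2.73 (SE 1.25, adjusted p = 0.0679). Without Tig1 replicate 1 the Tig1 difference was −3.95 (adjusted p = 0.0609) and without Tig1 replicate 3 it was −9.72 (adjusted p = 0.00875). Without Tig1P155A replicate 2, which held all 8 reads of its group, the Tig1P155A difference was −9.71 (adjusted p = 0.00912) and the average −4.35. The differences at 8 dpe were −1.26 with Tig1 (95% interval −3.53 to 1.003) and −1.25 with Tig1P155A (−3.51 to 1.01).

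FN1 went the other way in 1 comparison. On the connective tissue scale it was called higher with Tig1P155A at 3 dpe, at 1.90 (SE 0.62, adjusted p = 0.0116), in a comparison where 53.3% of all genes were called higher and 0.749% lower. The values were 60.8, 97.9 and 77.0 CPM in Tig1 cells, 120.2, 105 and 847 CPM in Tig1P155A cells and 120.1, 88.9 and 78.9 CPM in control cells. Replicate 3 alone carried the difference: without it the value was 0.23 (adjusted p = 0.773). The same library had the highest SPARC value of all 18 (967 CPM on this scale) and the lowest TNC, FSTL1 and ENPP2 values (27.5, 298 and 3.18 CPM). In it the log2 ratio of FN1 to FSTL1 was 1.499, against −4.03 to −1.91 in the other 5 overexpressing libraries of 3 dpe and −3.30 to −3.08 in the 3 control libraries.

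**Figure D3:**
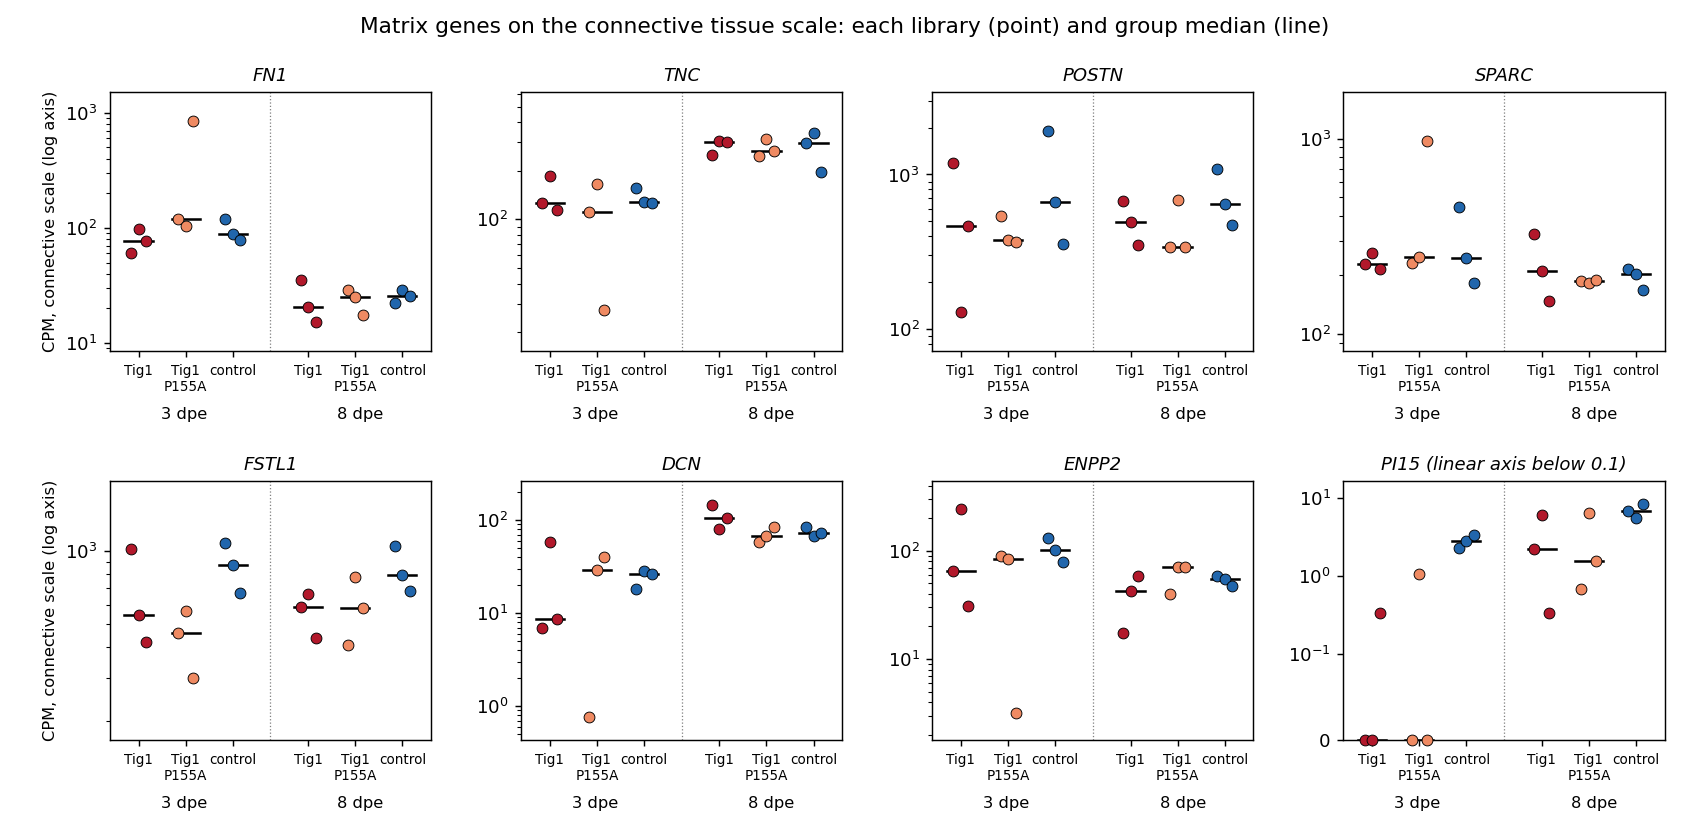
The same 18 libraries with CPM scaled by the 14 connective tissue markers in place of TMM (log axis, linear below 0.1 for PI15; colours, points and lines as for the TMM-scaled values). The 3 kinds of cells overlap within a time point for most genes, PI15 at 3 dpe is 0 to 1.06 CPM in overexpressing and 2.33 to 3.40 CPM in control cells, and FN1 is lower and TNC higher at 8 than at 3 dpe in all 3 kinds of cells.

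Between the time points, most differences of 8 minus 3 dpe were positive, and TNC and FSTL1 in Tig1P155A cells were the only ones called. In Tig1P155A cells TNC rose by 3.36 (SE 0.57, adjusted p = 0.00864) and FSTL1 by 2.41 (SE 0.51, adjusted p = 0.0247) on the log2 scale, 2 of 8 genes beside 1.17% of all genes called higher and 0.201% called lower. In Tig1 cells all 8 differences were positive and none was called, with TNC at 2.85 (SE 0.56, adjusted p = 0.0557), DCN at 4.25 (SE 0.98, adjusted p = 0.0904) and PI15 at 6.76 (SE 1.52, adjusted p = 0.0787), and 6 of 8 had an unadjusted p under 0.05. In Tig1 cells 0.0433% of all genes were called higher and 0.00788% lower, and in control cells 0.268% higher and 0.154% lower. In control cells none was called either (3 of 8 at an unadjusted p under 0.05, and 1 of 8 called by DESeq2), with TNC at 1.88 (adjusted p = 0.169), DCN at 2.42 (0.369) and FN1 at −0.93 (0.697). Libraries of 8 dpe lay above all of 3 dpe in 5 genes in Tig1 cells (TNC, SPARC, FSTL1, DCN and PI15), beside 7.25% of all genes. They did so in 6 genes in Tig1P155A cells (TNC, POSTN, FSTL1, DCN, ENPP2 and PI15), beside 9.51%, and in 6 in control cells (all but FN1 and ENPP2), beside 11.4%.

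The summed connective tissue markers were also higher at 8 than at 3 dpe in every library of Tig1 and of Tig1P155A cells. Several differences changed sign when these markers set the scale, an alternative chosen after the data had been seen. The median over all genes moved to −1.71 in Tig1, −1.91 in Tig1P155A and −0.84 in control cells. Relative to these markers FN1 was called lower at 8 than at 3 dpe in Tig1 cells, at −1.72 (adjusted p = 0.0339), and in Tig1P155A cells, at −3.90 (adjusted p = 0.00123), and was at −1.91 (adjusted p = 0.133) in control cells. In Tig1 cells FN1 thus lay at about the median of all genes. The 9 libraries of 8 dpe covered 15.4 to 35.4 CPM on this scale and those of 3 dpe 60.8 to 847 CPM. TNC was called higher in Tig1P155A cells, at 1.44 (adjusted p = 0.0303), and was at 1.01 (adjusted p = 0.127) in Tig1 cells and 1.03 (adjusted p = 0.257) in control cells, with 195 to 344 CPM at 8 dpe and 27.5 to 186 CPM at 3 dpe. DCN was called higher in Tig1 cells, at 2.19 (adjusted p = 0.0339), and was at 1.58 (adjusted p = 0.102) in Tig1P155A and 1.63 (adjusted p = 0.227) in control cells. Of the others PI15 was called higher in Tig1 cells, at 5.18 (adjusted p = 0.0203), and SPARC lower in Tig1P155A cells, at −1.38 (adjusted p = 0.0455). That fall of SPARC was smaller than the median fall of all genes in Tig1P155A cells. FSTL1 was not called, at −0.23 in Tig1, 0.43 in Tig1P155A and −0.06 in control cells. Positive on the TMM scale and negative on this one were FN1, POSTN, SPARC, FSTL1 and ENPP2 in Tig1 cells, SPARC in Tig1P155A cells and POSTN, SPARC and FSTL1 in control cells. On this scale 35.1% of all genes were called lower at 8 dpe in Tig1 cells, 39.9% in Tig1P155A cells and 0.374% in control cells, and 0.473%, 1.13% and 0.0433% higher.

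Leaving out 1 library ended 5 of these 6 calls on the connective tissue scale. FN1 in Tig1P155A cells was called in all 18 such fits, and was −2.23 without Tig1P155A replicate 3 of 3 dpe. FN1 in Tig1 cells lost its call without Tig1 replicate 2 or 3 of 3 dpe or any Tig1 library of 8 dpe (highest adjusted p = 0.112). SPARC in Tig1P155A cells was −0.37 (adjusted p = 0.620) without Tig1P155A replicate 3 of 3 dpe. It lost its call in 8 of the 18 fits (without that library, Tig1 replicate 1 or 2 of 3 dpe, any Tig1P155A library of 8 dpe or control replicate 1 or 2 of 8 dpe). TNC in Tig1P155A cells lost its call without Tig1P155A replicate 1 or 3 of 3 dpe or any Tig1P155A library of 8 dpe (highest adjusted p = 0.150). DCN in Tig1 cells lost it without Tig1 replicate 1 or 3 of 3 dpe or of 8 dpe (highest adjusted p = 0.143). It was 3.84 without Tig1 replicate 2 of 3 dpe. PI15 in Tig1 cells lost it without Tig1 replicate 1 of 3 dpe or Tig1 replicate 1 or 2 of 8 dpe (highest adjusted p = 0.0754), and was 9.74 without Tig1 replicate 3 of 3 dpe. In Tig1P155A cells PI15 was called only without Tig1P155A replicate 2 of 3 dpe, at 9.75 (adjusted p = 0.0136).

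**Figure D4:**
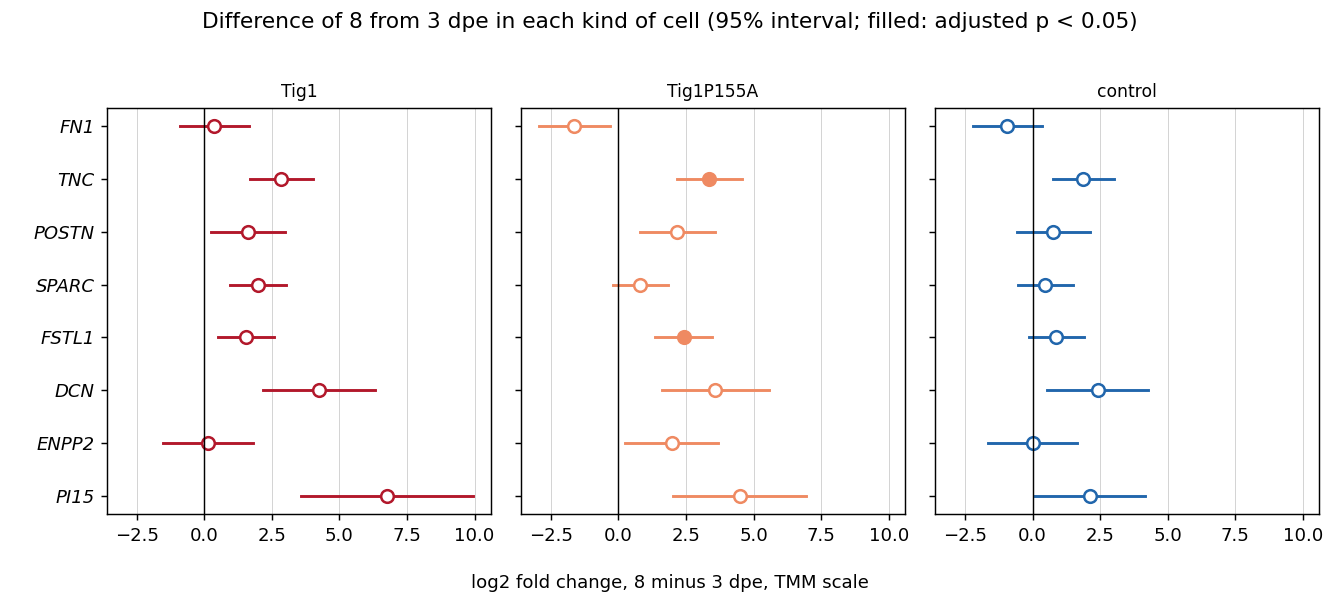
Log2 fold change of 8 minus 3 dpe (TMM scale) for the 8 matrix genes in Tig1, Tig1P155A and control cells, with 95% intervals; filled points have an adjusted p under 0.05. TNC (3.36) and FSTL1 (2.41) in Tig1P155A cells are the only filled points, and FN1 lies at 0.37, −1.64 and −0.93.

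The call of FSTL1 between the times in Tig1P155A cells was lost when Tig1P155A replicate 1 or 3 of 3 dpe or replicate 2 or 3 of 8 dpe was left out (highest adjusted p = 0.117), and that of TNC without Tig1P155A replicate 1 of 3 dpe (adjusted p = 0.0516). In Tig1 cells TNC was called in 5 of the 18 fits (without Tig1 replicate 1, any Tig1P155A library or control replicate 1 of 3 dpe), FSTL1 without Tig1 replicate 1 of 3 dpe (2.47, adjusted p = 0.0319) and DCN without Tig1P155A replicate 1 of 3 dpe (adjusted p = 0.0423). In Tig1P155A cells DCN was called without Tig1 replicate 2 of 3 dpe (adjusted p = 0.0361), and PI15 without Tig1P155A replicate 2 of 3 dpe (9.04, adjusted p = 0.0349) or Tig1 replicate 3 of 8 dpe (adjusted p = 0.0492). The effect of overexpression (the mean of both forms against control) was nearer 0 at 8 than at 3 dpe in all 8 genes, by 0.30 (FN1) to 3.49 (PI15) on the log2 scale, and the difference was called in none (lowest adjusted p = 0.418, 1 of 8 at an unadjusted p under 0.05, and 0 by DESeq2), beside 0.142% of all genes. The summed level of the 8 genes was 336 to 1233 CPM with Tig1, 364 to 572 CPM with Tig1P155A and 4301 to 4891 CPM in control cells at 3 dpe, and 1569 to 4085 CPM with Tig1, 1554 to 2417 CPM with Tig1P155A and 7256 to 8887 CPM in control cells at 8 dpe. This sum takes no account of gene length. In control cells it mostly follows FSTL1 (means of 1742 CPM at 3 dpe and 3181 CPM at 8 dpe) and POSTN (1575 and 2679 CPM).

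Tig1 and Tig1P155A cells, which differ by the proline to alanine change in the latexin domain, did not differ in a called way in any of the 8 genes at 3 dpe, at 8 dpe or on average, among 24 tests. At 3 dpe 1 of 8 had an unadjusted p under 0.05, FN1, at −1.64 (95% interval −2.96 to −0.33, adjusted p = 0.814), where the third Tig1P155A library stands apart. No gene had non-overlapping libraries between the forms at either time, beside 3.53% of all genes lower and 2.91% higher with Tig1 at 3 dpe, and 3% lower and 2.97% higher at 8 dpe. On average the difference was 0.58 for FSTL1 (−0.13 to 1.30), 0.48 for TNC (−0.29 to 1.26), 0.76 for POSTN (−0.19 to 1.71) and 0.06 for SPARC (−0.65 to 0.78). The intervals were widest for PI15, −1.11 (−3.20 to 0.99), and DCN, 0.68 (−0.61 to 1.97). Of all genes tested, 0.00394% differed between the forms at 3 dpe and 0% at 8 dpe and on average. DESeq2 called none of the 8 in any of the 3 comparisons either.

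Genes related to the 8 by family or function were taken from lists written from general knowledge, with results of these data known, and read beside the median of all genes on average (0.05) and the 18.7% called lower and 21.4% called higher. Structural relatives fell widely. Of 16 tested elastic fibre and fibronectin-rich matrix genes 15 were called lower (median −2.43). EMILIN3, an elastin-associated glycoprotein, was at −3.25 (SE 0.51, adjusted p = 5.23e-05), FBLN1 (fibulin-1) at −2.95 (SE 0.37, adjusted p = 3.31e-06) and MFAP2, a microfibril protein, at −2.78 (SE 0.28, adjusted p = 2.36e-07). MFAP2 had 152 ± 74.6 CPM with Tig1, 69.0 ± 50.5 CPM with Tig1P155A and 1197 ± 65.8 CPM in control cells at 3 dpe. Of 6 small leucine-rich proteoglycans 5 were lower (median −2.62). Among them were OGN (osteoglycin) at −2.72 (SE 0.24, adjusted p = 5.08e-08) and OPTC (opticin) at −2.40 (SE 0.43, adjusted p = 2.04e-04). ASPN (asporin) was called too, at −2.93 (SE 0.73, adjusted p = 0.00437), but its size is uncertain. At 3 dpe ASPN had means of only 0.165 CPM with Tig1, 0 CPM with Tig1P155A and 0.427 CPM in control cells. At 8 dpe it had 23.9 ± 11.3 CPM with Tig1, 9.9 ± 9.9 CPM with Tig1P155A and 69.0 ± 88.6 CPM in control cells. Only 5 overexpressing libraries lay below every control library of their time for ASPN. Of 7 members of the SPARC and follistatin-domain family 5 were lower (median −3.40), with the activin antagonist FST at −2.41 (SE 0.52, adjusted p = 0.00112) and SMOC2 at −1.95 (SE 0.44, adjusted p = 0.00151). FST and SMOC2 were the only ones of this family with a mean of 4 CPM or more. The median is the value of a gene with a mean of 1.64 CPM. Of 8 tenascins, thrombospondins and matrilins 5 were lower and none higher (median −1.67), with THBS2 at −2.61 (SE 0.21, adjusted p = 1.70e-08), MATN4 at −1.79 (SE 0.68, adjusted p = 0.0438) and MATN2 at −1.63 (SE 0.60, adjusted p = 0.0379).

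THBS2, the closest relative of THBS1 in the lists, had 83.2 ± 32.4 CPM with Tig1, 64.2 ± 19.9 CPM with Tig1P155A and 654 ± 246 CPM in control cells at 3 dpe. At 8 dpe it had 198 ± 46.3 CPM with Tig1, 182 ± 48.7 CPM with Tig1P155A and 794 ± 193 CPM in control cells, and all 12 overexpressing libraries lay below the controls of their time. A row with the symbol TSP-1 (AMEX60DD012285), a name also used for thrombospondin-1, does not meet the rule by symbol and was looked at after its values were seen. It was at 227, 205 and 278 CPM in Tig1 cells, 299.8, 145 and 255 CPM in Tig1P155A cells and 28.3, 62.3 and 142 CPM in control cells at 3 dpe, higher by 1.61 (SE 0.47, adjusted p = 0.0189) and 1.59 (SE 0.47, adjusted p = 0.018) on the log2 scale in Tig1 and Tig1P155A cells. At 8 dpe Tig1 cells gave 0.20 (adjusted p = 0.832) and Tig1P155A cells −0.76 (adjusted p = 0.333), and the average was 0.66 (SE 0.29, adjusted p = 0.0792).

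Other matricellular, hyaluronan and lipid-signalling genes moved less evenly. Of 13 CCN, TGFBI and other matricellular genes 7 were lower and 1 higher (median −1.59): NOV, also called CCN3, was at −3.02 (SE 0.47, adjusted p = 4.51e-05) and MGP, the matrix Gla protein, at −2.85 (SE 0.48, adjusted p = 1.04e-04), while ECM1, a secreted glycoprotein also made outside connective tissue, was higher at 3.19 (SE 0.31, adjusted p = 1.40e-07). Of 7 hyalectans, link proteins and hyaluronan synthases 2 were lower, HAS2, which makes hyaluronan, at −2.72 (SE 0.45, adjusted p = 8.62e-05) and the link protein HAPLN3 at −2.19 (SE 0.56, adjusted p = 0.00444) (median −2.29). Of 4 CAP-domain relatives of PI15 1 was lower, CRISPLD2 at −1.74 (SE 0.25, adjusted p = 2.20e-05), and 1 higher, PI16 at 3.65 (SE 0.95, adjusted p = 0.00485) with a mean of only 0.623 CPM (median −1.48). PI16 falls outside the rule for named genes and was named after its values were seen.

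Of the 12 tested genes in the list around ENPP2, 5 were lower and 4 higher (median 0.13). This list holds lysophosphatidic acid receptors and lipid phosphatases together with relatives of ENPP2, so the count is not one of the pathway alone. Other members of the ENPP family went both ways. ENPP3 was higher at 8.77 (SE 0.70, adjusted p = 1.15e-08) and ENPP5 at 2.81 (SE 0.31, adjusted p = 6.19e-07), while ENPP1 was lower at −1.65 (SE 0.39, adjusted p = 0.00258) and ENPP6 at −1.28 (SE 0.28, adjusted p = 0.00118), and ENPP4 was not called, at 1.55 (adjusted p = 0.0597). Of the lipid phosphatases that break lysophosphatidic acid down, PLPP2 was lower at −2.04 (SE 0.42, adjusted p = 7.05e-04) and PLPP1 higher at 0.99 (SE 0.30, adjusted p = 0.0124). ENPP1, ENPP4, ENPP6 and PLPP1 fall outside the rule for named genes and were named after their values were seen. ENPP3 had 40.7 ± 16.8 CPM with Tig1, 41.6 ± 3.67 CPM with Tig1P155A and 0.106 ± 0.184 CPM in control cells at 3 dpe, so within this family ENPP2 and ENPP3 moved in opposite directions. Control cells of 8 dpe had 0.0511 ± 0.0492 CPM of ENPP3. Its fitted 8.77 thus rests on few control counts, and its size is uncertain. Of 12 receptors and partners of the 8 genes 5 were lower and 3 higher (median −0.67). TGFB2, a ligand that decorin can bind, was at −3.53 (SE 0.48, adjusted p = 9.93e-06) and the collagen receptor DDR2 at −2.38 (SE 0.27, adjusted p = 1.17e-06), and STAB1, a scavenger receptor of macrophages and sinusoidal endothelium that takes up SPARC, was higher at 8.06 (SE 0.69, adjusted p = 8.03e-08). STAB1 held no count in the 3 control libraries of 3 dpe, so its fitted value depends on the prior count and is no bound. The myeloid markers were higher in the same libraries, as given above.

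**Figure D5:**
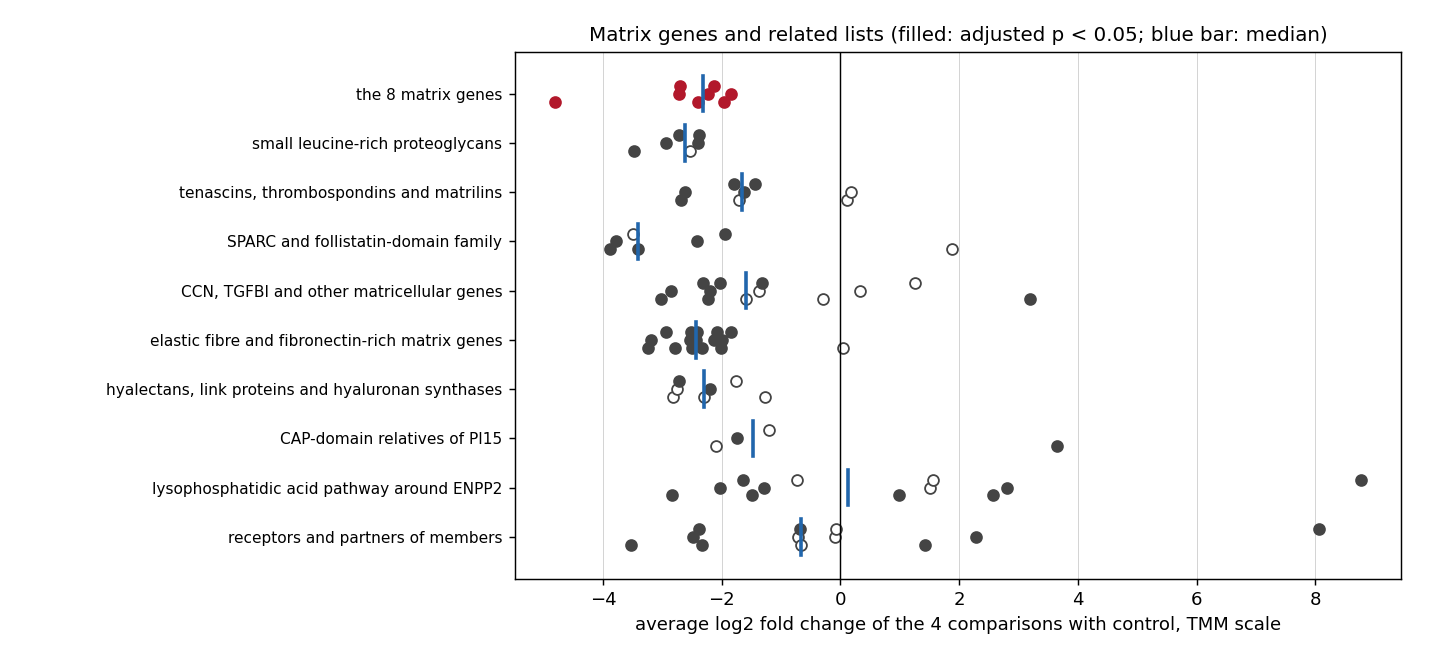
Average log2 fold change (mean of the 4 comparisons with control, TMM scale) of the 8 matrix genes (red) and of the tested genes of each related list (grey); filled points have an adjusted p under 0.05 and blue bars are medians. The median is −2.32 for the matrix genes and between −3.40 and 0.13 for the lists. The lowest, of the SPARC and follistatin-domain family, is the value of a gene with a mean of 1.64 CPM. The list named for the lysophosphatidic acid pathway also holds other members of the ENPP family.

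The pattern over the 6 groups was then compared with that of 8580 other genes with a gene symbol and a mean level of 4 CPM or more, by the root mean square difference of the 6 group means of log2(CPM + 0.5), each centred on its own mean. Nearest to SPARC were LTBP3 (0.09), which binds latent TGF-beta, and P3H1 (0.11), a collagen prolyl hydroxylase. FSTL1 was nearest to FBN3 (0.11), a fibrillin, and LTBP1 (0.13), and POSTN to CPZ (0.14), a carboxypeptidase, and FBN3 (0.16). ENPP2 was nearest to WNT-5A (0.15) and FBLN1 (0.19), and TNC to COL4A1 and COLEC12 (both 0.20). The nearest genes were farther off for FN1 (LRFN4 at 0.30), PI15 (MATN4.S at 0.31 and OGN at 0.33) and DCN (FBLN2 at 0.40 and WNT11 at 0.41). In overexpressing cells of 3 dpe PI15 lay below the 0.5 CPM that is added, so its nearest genes depend on that value. Among the 8 genes themselves FSTL1 and POSTN were the closest pair (0.18), and FN1 was farthest from the rest, with SPARC as its nearest at 0.91. The FN1 mean in Tig1P155A cells of 3 dpe (0.16 above its own mean) includes replicate 3, which stood apart from its group. The part of this library in the distance was not tested. The profile of FN1 peaked in control cells of 3 dpe (1.81 above its mean, 0.87 in control cells of 8 dpe), whereas in 6 of the other 7 genes control cells of 8 dpe were highest (1.63 to 3.28 above the mean), and in ENPP2 control cells of 8 and of 3 dpe were level (1.86 and 1.84 above the mean).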

How the data were processed

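Smart-seq2 libraries of 300 sorted cells were made for 18 samples (6 groups of 3). The authors aligned reads with STAR 2.7.6a to AmexG_v6.0-DD extended by spike-in sequences, the mitochondrial genome and curated models of the HoxA and HoxD clusters, counted uniquely mapped reads per gene with featureCounts 2.0.1, and deposited raw counts. Whether counting used strand is not given in the sources used here, so overlapping antisense genes may share reads. The 92 spike-in sequences held 0 counts.

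Genes reaching 0.5 CPM in 1 or more libraries were kept, as in the study's methods, and tested with edgeR 4.0.16 (TMM, quasi-likelihood, 1 mean per group, all 18 libraries, 12 residual degrees of freedom) in R 4.3.3 with limma 3.58.1, with Benjamini-Hochberg adjustment over all genes. The study's own test, DESeq2 (1.42.0 here), was an alternative. The pipeline was tested on simulated data. Figures were drawn with matplotlib 3.10.9.

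The 10 genes, the related lists and the markers were chosen with earlier results of these data known. Named from each related list were up to 3 genes with the largest average change among those with at least 4 CPM, called on average and changed in 1 direction in all 4 comparisons. Named for likeness were the 2 nearest genes of each matrix gene, of which 1 is not reported here. The table gives gene spans and no exon lengths, and the reference annotation is of another assembly, so it was not used for coordinates or sequences. The scaling by connective tissue markers replaces TMM by the geometric mean of 14 markers. Alternatives changed the scaling, filter, threshold, test, samples fitted and replicate block, and left out each library in turn.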

Additional observations from a re-analysis of the deposited data

How the results depend on the processing

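All 8 matrix genes were called lower on average under every alternative run on the TMM scale or another scaling over all genes (adjusted p at most 0.00697, leaving out each library included). Single calls depended on the setting, most of all at 8 dpe and between times. At 3 dpe the number called lower ran from 6 to 8 over the alternatives with Tig1 and with Tig1P155A (7 in the report for each). The larger changes in the number of matrix genes called were as follows. Lower with Tig1 at 8 dpe (1 in the report) were 2 with DESeq2's size factors in edgeR, 4 with mitochondrial genes left out, 5 with library size alone, 7 with every gene of at least 1 count, 2 with the replicate block, 5 with only the groups compared, 6 with DESeq2's test and 3 without the 3 libraries of a TMM factor under 0.7. Lower with Tig1P155A at 8 dpe (4) were 1 at an adjusted p under 0.01, and 8 with every gene of at least 1 count or with only the groups compared. Higher at 8 than at 3 dpe in Tig1 cells (0) were 1 without the mitochondrial genes, 6 with every gene of at least 1 count, 4 with DESeq2's test and 1 without the 3 libraries. In Tig1P155A cells (2) they were 1 at an adjusted p under 0.01, with library size alone or with only the groups compared, 6 (and 1 lower) with every gene of at least 1 count, 5 with DESeq2's test and 0 without the 3 libraries. In control cells (0) they were 2 with every gene of at least 1 count or only the groups compared, and 1 with DESeq2's test. With every gene of at least 1 count, 1 gene also passed for the change of the overexpression effect between times (higher) and 1 between the forms at 3 dpe (lower with Tig1). The cause was not tested.

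On the connective tissue scale, 1 gene was lower and 2 higher at 8 than at 3 dpe in Tig1 cells, and 2 lower and 1 higher in Tig1P155A cells; FSTL1 was −0.23 in Tig1 and −0.055 in control cells. Against control on that scale, 2 genes (1 in the report) were lower on average with the median of log ratios, 2 (1) with Tig1 at 3 dpe without the 3 libraries, and 1 (0) with Tig1P155A at 3 dpe with the replicate block. TNC turned to 0.048 on average with the collagens left out, and DCN to −0.14 without the 3 libraries. Leaving out the 3 libraries, and the time comparison on this scale, were chosen after seeing the data.

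With each library left out in turn, 6 to 8 genes were lower with Tig1 and 7 to 8 with Tig1P155A at 3 dpe, 0 to 5 with Tig1 and 1 to 6 with Tig1P155A at 8 dpe, and 8 on average. Higher at 8 than at 3 dpe were 0 to 3 in Tig1, 0 to 3 in Tig1P155A and 0 to 1 in control cells. On the connective tissue scale 1 to 3 were lower on average, 1 with Tig1 and 0 to 1 with Tig1P155A at 3 dpe, where 0 to 1 were higher. Lower on average besides PI15 were FSTL1 and POSTN without Tig1 replicate 1 of 3 dpe, and POSTN without control replicate 3 of 3 dpe. The 1 gene with Tig1 at 3 dpe was not PI15 in the fit without Tig1 replicate 1, as given above. The averages ranged from −0.23 to 0.022 for TNC, −0.064 to 0.46 for FN1, −0.11 to 0.36 for SPARC and −0.31 to 0.24 for DCN. Between the times on that scale, an alternative also chosen after seeing the data, 0 to 1 were lower and 0 to 2 higher in Tig1 cells, 1 to 2 lower and 0 to 2 higher in Tig1P155A cells, and SPARC in Tig1 cells ranged from −0.40 to 0.19.

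Deviations from the group mean correlated at r from −0.26 to 0.18 over 18 pairs of same-numbered libraries (6 of them over 0.1). Over 36 pairs with different numbers r ran from −0.44 to 0.57 (14 over 0.1). These correlations cannot tell whether equal numbers mark shared pools or sorts. The main test did not pair the libraries, and a replicate block was an alternative. Over all genes, the number called lower on average was 4753 (2876 to 7552 over the alternatives) and higher 5429 (3472 to 5649). With Tig1 it was 2150 lower (916 to 3647) and 3941 higher (2280 to 4663) at 3 dpe, and 327 lower (60 to 1065) and 2693 higher (1639 to 3288) at 8 dpe. With Tig1P155A it was 2923 lower (1413 to 4346) and 3845 higher (2391 to 4259) at 3 dpe, and 437 lower (97 to 1332) and 2698 higher (1640 to 3171) at 8 dpe. Summing all rows of a symbol changed nothing, as each matched 1 row, and levels per length were not run, for want of exon lengths. Over all libraries a count of 3 is 0.0872 to 0.455 CPM, which limits PI15 and, in Tig1P155A replicate 1 of 3 dpe, DCN.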
